A study of Mus musculus with 24 samples.

Results

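Livers of male Ercc1 mutant mice kept on restricted food were compared with livers of freely fed wild-type males of the same age, to find what differs from normal liver once the mutant is on a diet known to extend its life. The comparison holds 8 of the 24 libraries of the study, chosen by their titles: 4 libraries of Ercc1 d/- mice on 30% dietary restriction and 4 libraries of Ercc1 +/+ mice fed ad libitum, all taken at 16 weeks of age. All mice were F1 hybrids (C57BL6J/FVBN). The mutants carry one null and one truncated (delta) allele in every tissue, and both groups ate the same synthetic AIN93G pellets. Restriction began at 7 weeks of age with 10%, rose by 10% a week and stood at 30% from 9 weeks, which gave the mutant 1.6 g of food a day. Adult wild-type mice ate 3.0 g a day, and freely fed mutants 2.3 g. No mouse was fed on the day of sacrifice before its liver was taken. Genotype and diet both differ between the 2 groups, so the shares of each cannot be told apart in this comparison alone, and the values of freely fed mutants and restricted wild types of the same age (4 libraries each) are given beside the main ones.

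ERCC1 pairs with XPF (Ercc4) to form the endonuclease that cuts damaged DNA on the 5′ side of a lesion in nucleotide excision repair and that also acts on interstrand crosslinks. Mice with little of it age prematurely, with pronounced changes in the liver, and food restriction is known to extend their life. The liver sets its fuel, nitrogen and hormone metabolism by feeding, and in the mouse many of its genes also differ between the sexes because males and females release growth hormone in different temporal patterns.

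RNA was measured as sequenced polyadenylated transcripts counted per gene, and levels below are CPM (counts scaled to a common library size with TMM), so each is relative to the rest of the library. Total counts per library ran from 13269792 to 16976793 in the restricted mutant and from 14511828 to 19576692 in the freely fed wild type. Transcripts of mitochondrial DNA made up 13.55 to 15.01% of counts in the restricted mutant and 10.71 to 11.77% in the wild type. Albumin made up 8.14 to 9.98% and 6.42 to 7.72%. These are shares before TMM scaling, whose factors were 1.0195 to 1.1636 in the restricted mutant and 0.9195 to 1.0058 in the wild type. After scaling, only mt-Nd5 and mt-Nd6 of the mitochondrial protein genes changed at an edgeR adjusted p under 0.05, both higher. Their median log2 level against the wild-type mean overlapped, at 0.016 to 0.348 and -0.086 to 0.133 for the whole set. The first principal component of the 500 most variable genes over the 16 libraries at 16 weeks (44.2% of the variance) set the restricted libraries apart from the freely fed ones. The second (31.4%) set the mutant libraries apart from the wild type, so the 2 groups compared here sat at opposite corners. Since the labels number the libraries but do not state that each number is a different animal, the p-values speak only of the variation among the libraries at hand.

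**Figure D1:**
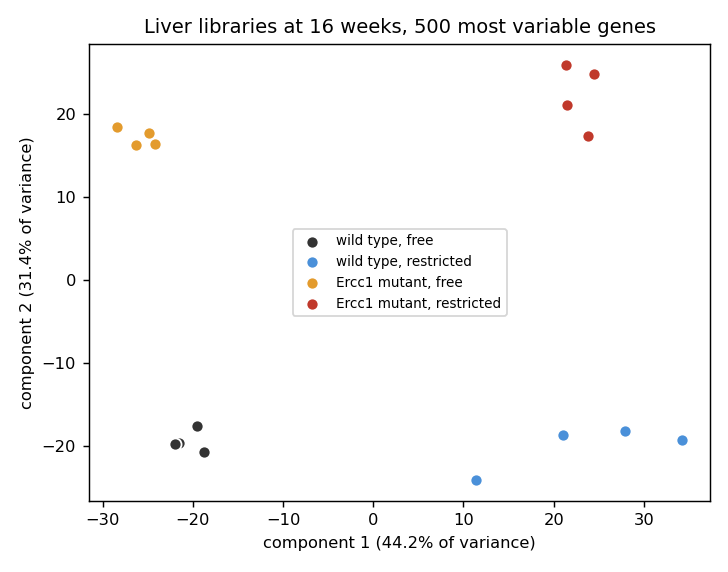
Principal components of the 16 liver libraries at 16 weeks (500 most variable genes, log2 CPM), component 1 on the x axis and component 2 on the y axis, with 1 point per library. The 4 restricted mutant libraries lie between 21.39 and 24.45 on component 1 and between 17.35 and 25.95 on component 2, and the 4 freely fed wild-type libraries between -22.01 and -18.82 and between -20.75 and -17.65.

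Ercc1 itself (ENSMUSG00000003549, chromosome 7, 19344778 to 19356524 on GRCm38) was measured at 3.0, 2.06, 2.81 and 2.47 CPM in wild-type libraries 1 to 4. Restricted mutant libraries 1 to 4 gave 1.63, 1.29, 1.98 and 1.3 CPM. Every mutant library lay below every wild-type library, and the mutant libraries still held counts. A count summed over the gene does not tell where along the transcript its reads fall. The log2 fold change of -0.74 ± 0.27 (SE) passed the threshold narrowly (edgeR adjusted p = 0.0469). That call was lost when restricted mutant library 1, 2 or 4 or wild-type library 1, 3 or 4 was left out, with edgeR adjusted p between 0.066 and 0.121. It was also lost with upper quartile scaling (edgeR adjusted p = 0.0738) and without the filter on low counts (0.0728).

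The 2 groups differed in 3453 of 12690 genes tested (27.2%; Benjamini-Hochberg adjusted p under 0.05 in edgeR's quasi-likelihood test). Of these, 1723 (13.6% of genes tested) were higher and 1730 (13.6%) lower in the restricted mutant, and 1407 changed by more than 1 on the log2 scale (814 higher, 593 lower). The split moved with the scaling, and upper quartile normalization gave 2076 higher and 1438 lower. The 4 libraries of one group did not overlap the 4 of the other in 3846 genes (30.3%). The median log2 fold change of all genes tested was 0.025. Counts of list members given below are to be read beside the 13.6% of all genes tested that were called in each direction.

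**Figure D2:**
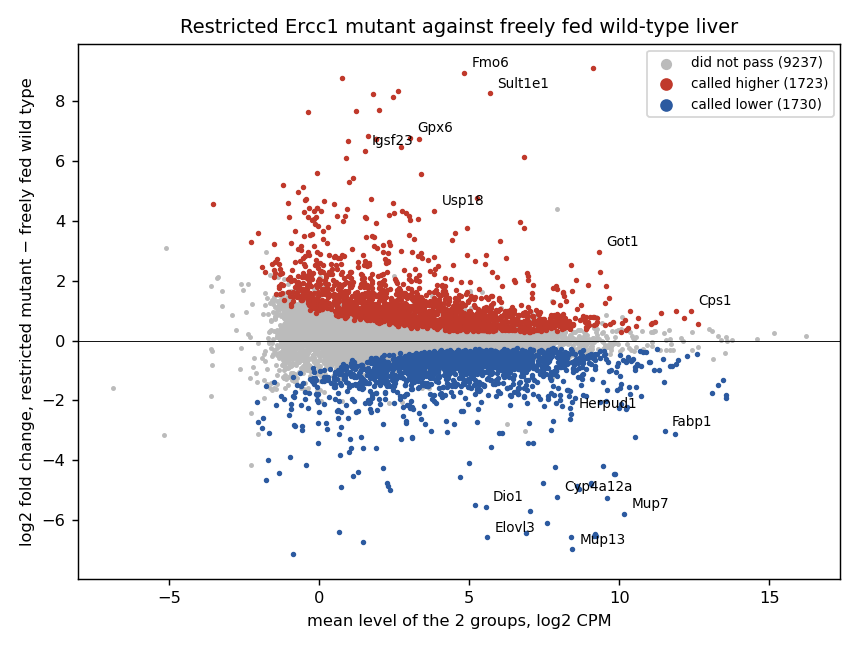
Log2 fold change of the restricted mutant against the freely fed wild type (y axis) by mean level of the 2 groups in log2 CPM (x axis), with 1 point per gene tested. Red points are the 1723 genes called higher, blue points the 1730 called lower and grey points the rest, and the named points include Fmo6 at 8.94 and Mup13 at -6.96.

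For the side groups, freely fed mutants differed from freely fed wild types in 647 genes called higher (5.1%) and 615 called lower (4.85%). Restricted wild types differed from freely fed wild types in 800 genes called higher (6.3%) and 926 called lower (7.3%), and the higher calls numbered 497, 445 and 499 without wild-type library 2, 3 or 4. These 2 comparisons share their 4 control libraries with the main one. Between restricted and freely fed mutants, 623 genes were called higher (4.91%) and 803 lower (6.33%), a balance that turned to 777 higher and 663 lower with upper quartile normalization. A test of whether restriction acted differently in the 2 genotypes (the interaction of diet and genotype) called 115 genes higher (0.906%) and 75 lower (0.591%) in the mutant's response, and 145 higher and 57 lower with upper quartile normalization. Without wild-type library 4 these counts were 71 and 38, and without wild-type library 1, 2 or 3 the lower calls numbered 46, 49 and 47.

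Many of the largest changes lay in genes that differ between male and female liver. Of 29 tested genes known to be higher in males, 25 fell and none rose, with a median log2 fold change of -1.78. Of 37 known to be higher in females, 16 rose and 4 fell, with a median of 0.77. In the freely fed mutant the medians were 0.27 for the male-biased list (10 rose, 3 fell) and -1.17 for the female-biased list (5 rose, 17 fell). In the restricted wild type they were -2.23 (0 rose, 26 fell) and 0.70 (15 rose, 0 fell). All mice were male.

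Fmo6 (chromosome 1, 162916551 to 162937515), a gene of the flavin monooxygenase family, gave 0.111, 0.333, 0 and 0 CPM in wild-type libraries 1 to 4. Restricted mutant libraries 1 to 4 gave 71.7, 51, 61.2 and 45.7 CPM. The groups lay far apart, with a log2 fold change of 8.94 ± 0.47 (edgeR adjusted p = 2.34e-11), or 10.21 when wild-type library 2 was left out. Freely fed mutants held 0.333 ± 0.266 CPM (SD, n = 4), close to the wild type at 0.111 ± 0.157 CPM, while restricted wild types reached 33.4 ± 5.6 CPM.

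Sulfotransferases that conjugate steroids rose beside it. Sult1e1, the estrogen sulfotransferase, gave 0.0556, 0.0665, 0.239 and 1.03 CPM in wild-type libraries and 166, 116, 50.8 and 78.2 CPM in the restricted mutant. All 4 mutant libraries exceeded the highest wild-type library, and the log2 fold change was 8.25 ± 0.94 (edgeR adjusted p = 2.45e-06), or 9.64 without wild-type library 4. Sult1e1 stood at 6.07 ± 2.72 CPM in the freely fed mutant and 7.61 ± 8.22 CPM in the restricted wild type, so the restricted mutant held the highest level of the 4 groups. Sult2a1, a hydroxysteroid sulfotransferase, had 2 counts in the whole wild-type group against 814 in the restricted mutant, a ratio of 383 (95% counting interval 106 to 3170). Sult2a2, Sult2a4, Sult2a6 and Sult3a2 were also among the 12 largest rises. The Sult2a genes are close copies of one another, so their separate values are uncertain. Over the whole groups, Sult2a2 had a ratio of 343 (94.5 to 2830), Sult2a6 of 133 (45.3 to 649) and Sult3a2 of 311 (55.4 to 12300), intervals that cover counting error only. Restricted mutant libraries 3 and 4 held more Sult2a1 (15.2 and 24.9 CPM) than libraries 1 and 2 (4.14 and 5.31 CPM), and the log2 fold change of 8.31 became 7.72 without library 4. Sult3a2 had the opposite order, with 8.87 and 7.29 CPM in libraries 1 and 2 and 0.7 and 1.94 CPM in libraries 3 and 4, and its log2 fold change of 7.66 was 9.25 without wild-type library 4.

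Among the falls, the major urinary proteins led. These pheromone carriers are made in bulk by male liver. Mup13, the largest of the 12 named falls, gave 366, 683, 709 and 1010 CPM in wild-type libraries and 7.47, 9.12, 2.8 and 2.72 CPM in the restricted mutant, a log2 fold change of -6.96 ± 0.81 (edgeR adjusted p = 2.81e-06). Mup1, Mup2, Mup7, Mup8, Mup11, Mup12, Mup14 and Mup15 had log2 fold changes between -6.56 and -5.69, but the Mup genes are near-identical and share reads, so these are best read as 1 group. Mup20 (darcin), whose sequence is more distinct, fell from 2030 ± 242 to 586 ± 203 CPM, by 1.79 on the log2 scale (edgeR adjusted p = 0.0017). It was at 8310 ± 1310 CPM in the freely fed mutant and 149 ± 120 CPM in the restricted wild type. Mup7 in contrast stood at 2670 ± 694 CPM in the freely fed mutant, beside 2270 ± 630 CPM in the wild type.

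Cyp4a12a (chromosome 4, 115299046 to 115332815), a male-specific fatty acid hydroxylase, gave 599, 423, 446 and 411 CPM in wild-type libraries and 17.5, 8.37, 12.7 and 12.4 CPM in the restricted mutant. This was the gene with the lowest adjusted p of the male-biased list (log2 fold change -5.20 ± 0.24, edgeR adjusted p = 2.09e-13), although its copy Cyp4a12b may share its reads. Freely fed mutants held 179 ± 24.4 CPM of Cyp4a12a and restricted wild types 20.2 ± 7.37 CPM. Elovl3, which lengthens fatty acids, gave 43.3, 98.7, 78.8 and 162 CPM in wild-type libraries and 1.23, 0, 2.04 and 0.778 CPM in the restricted mutant. Its log2 fold change was -6.57 ± 0.76 (edgeR adjusted p = 2.66e-06), or -7.18 without restricted mutant library 3, and freely fed mutants (98.8 ± 31.7 CPM) were near the wild type. Slco1a1, a male-biased organic anion transporter, fell from 541 ± 30.9 to 115 ± 22.3 CPM, while its relative Slco1a4 rose from 60.4 ± 3.85 to 218 ± 26.3 CPM (edgeR adjusted p of 1.1e-08 and 1.72e-08). Serpina12 (vaspin) fell from 71.5 ± 8.19 to 1.58 ± 1.31 CPM, a log2 fold change of -5.49 that reached -6.24 without restricted mutant library 1. Both side groups held intermediate levels of Serpina12, 8.86 ± 2.32 CPM in the freely fed mutant and 15.2 ± 2.66 CPM in the restricted wild type.

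Not all female-biased genes rose. Cyp2b9, Cyp2b10, Cyp2b13 and Cyp2b23, cytochromes P450 of the drug-metabolising Cyp2b cluster on chromosome 7, were near absent in the freely fed mutant and near the wild-type level in the restricted one. Cyp2b10 gave 20.1, 26.1, 15.2 and 33.9 CPM in wild-type libraries and 48.9, 18.3, 15.2 and 17.8 CPM in the restricted mutant, and the groups overlapped. Freely fed mutants held 0.489 ± 0.217 CPM of Cyp2b10 and restricted wild types 85.9 ± 29.9 CPM. Cyp2b13 stood at 39.2 ± 9.36 CPM in the wild type, 45.4 ± 10.6 CPM in the restricted mutant and 1.2 ± 0.297 CPM in the freely fed mutant. The 95% intervals of the log2 difference between restricted mutant and wild type were -0.77 to 0.92 for Cyp2b10, -0.54 to 0.97 for Cyp2b13 and -0.95 to 0.94 for Cyp2b9. Restriction raised Cyp2b10 more in the mutant than in the wild type (interaction 3.80 ± 0.72 on the log2 scale, edgeR adjusted p = 0.00675), and these 4 genes share sequence, so their values are not independent. Vldlr, a lipoprotein receptor outside that cluster, showed the same order, with 5.05 ± 1.38 CPM in the wild type, 0.391 ± 0.236 CPM in the freely fed mutant and 3.88 ± 0.499 CPM in the restricted mutant (interval of the main log2 difference -1.30 to 0.54).

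Growth hormone acts on the liver through its receptor and the STAT5 factors, and the liver answers with IGF1 and its carriers. Ghr (chromosome 15, 3317760 to 3583492), the receptor gene, gave 504, 385, 419 and 361 CPM in wild-type libraries and 119, 96.9, 112 and 97.7 CPM in the restricted mutant. The groups were far apart, with a log2 fold change of -1.97 ± 0.17 (edgeR adjusted p = 8.7e-09). Both side groups lay between, at 265 ± 11.4 CPM in the freely fed mutant and 213 ± 72.8 CPM in the restricted wild type. Igfals, which holds IGF1 in its circulating complex, fell from 191 ± 21.9 to 81.9 ± 25.6 CPM (edgeR adjusted p = 1.93e-05). Igf1 gave 246, 230, 218 and 238 CPM in wild-type libraries and 226, 218, 170 and 137 CPM in the restricted mutant, so the groups overlapped. Its log2 fold change of -0.31 (95% interval -0.61 to -0.02) missed the threshold (edgeR adjusted p = 0.107), and passed it without restricted mutant library 1 (-0.42, adjusted p = 0.0441). Igfbp2, a binding protein that rises when growth hormone action is low, rose by 2.53 on the log2 scale, from 100 ± 14.6 to 576 ± 166 CPM (edgeR adjusted p = 1.37e-06), near the restricted wild type at 546 ± 197 CPM. Of the factors that carry or modify the signal, Stat5b gave -0.27 (interval -0.63 to 0.09) and Bcl6 -0.62 (interval -1.43 to 0.19), neither past the threshold. Cux2, a repressor found mainly in female liver, rose by 2.53 on the log2 scale, from 6.43 ± 1.82 to 37.4 ± 26.6 CPM (edgeR adjusted p = 0.00623), or by 1.91 without restricted mutant library 1, which held 76.8 CPM. Across the 20 tested genes of the growth hormone and IGF1 list, 3 rose and 4 fell, beside 13.6% of all genes tested called in each direction.

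Interferons are signals of viral or misplaced nucleic acids, and cells answer by switching on genes that carry an interferon-stimulated response element (ISRE) in their promoters. Of 39 tested interferon-response genes, 26 rose and none fell in the restricted mutant, with a median log2 fold change of 1.06. The list's median was 0.99 in the freely fed mutant (20 rose) and -0.05 in the restricted wild type (1 rose, 2 fell). Between restricted and freely fed mutants 1 rose and 1 fell. The number that rose was 16 without restricted mutant library 3, the library with the highest list level. By library, the list stood at 0.103, 0.841, 1.079 and 1.617 above the wild-type mean on the log2 scale, from lowest to highest, and the wild-type libraries lay between -0.175 and 0.123, so mutant library 1 lay inside the wild-type range.

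To show the element, 2 promoters that hold it are printed here from the 250 bases before the gene start (RefSeq, GRCm38.p6), with letters matching GAAA, any 2 bases and GAAA on either strand in capitals. The Oas1g promoter lies at chr5:120887614-120887863 on the minus strand and holds 2 overlapping matches, and that of Rsad2 at chr12:26456453-26456702, also on the minus strand, holds 1 on the opposite strand.
Oas1g: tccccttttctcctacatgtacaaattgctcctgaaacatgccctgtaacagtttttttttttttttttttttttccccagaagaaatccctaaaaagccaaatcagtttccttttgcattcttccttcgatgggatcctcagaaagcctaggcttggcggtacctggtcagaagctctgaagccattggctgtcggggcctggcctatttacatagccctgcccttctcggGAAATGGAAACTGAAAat
Rsad2: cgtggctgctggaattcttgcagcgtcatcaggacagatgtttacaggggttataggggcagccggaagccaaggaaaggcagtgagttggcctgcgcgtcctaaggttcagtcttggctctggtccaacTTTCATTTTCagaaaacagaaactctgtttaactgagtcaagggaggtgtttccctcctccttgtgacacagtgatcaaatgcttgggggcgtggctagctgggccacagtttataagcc
Of the list, 28 genes matched the promoter table, and 17 of them had the motif in at least 1 window of 300 bases (250 before to 50 after the start). In windows, this was 18 of 32 (56.2%), against 3.44% of 32851 windows of all genes. These counts cover the whole list and not the genes that rose. Irf7, Irf9, Ifit2, Ifi44, Oasl1, Oasl2 and Xaf1 rose without the motif in their windows, and Usp18 was not in the promoter table. A match describes these letters and not a bound site.

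Oas1g, an enzyme that makes the signal for RNA degradation, gave 0.834, 0.399, 0.659 and 0.822 CPM in wild-type libraries and 3.39, 4.67, 4.73 and 4.08 CPM in the restricted mutant. All mutant libraries exceeded all wild-type ones, with a log2 fold change of 2.62 ± 0.31 (edgeR adjusted p = 9.47e-07). Its neighbour Oas1a, which is similar in sequence, changed by 2.47 ± 0.33. Rsad2 (viperin) gave 0.945, 1.93, 2.22 and 1.64 CPM against 2.28, 3.06, 9.63 and 5.64 CPM, higher in every mutant library than in any wild-type one, with a log2 fold change of 1.61 ± 0.53 (edgeR adjusted p = 0.026). The Rsad2 call was lost without restricted mutant library 3 (1.11, edgeR adjusted p = 0.131), wild-type library 1 (1.41, adjusted p = 0.0819) or wild-type library 4 (1.6, adjusted p = 0.0556).

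Usp18 (chromosome 6, 121245906 to 121270917), which removes the ISG15 tag and damps the interferon receptor, had the lowest adjusted p of the list. It gave 1.44, 1.93, 1.26 and 0.754 CPM in wild-type libraries and 26.7, 36.7, 25.2 and 20.2 CPM in the restricted mutant. The log2 fold change was 4.33 ± 0.34 (edgeR adjusted p = 1.72e-09). Freely fed mutants held 12.7 ± 4.18 CPM, below the restricted mutant (log2 difference 1.10 ± 0.28, edgeR adjusted p = 0.01), and restricted wild types 2.51 ± 0.834 CPM. Irf7, the factor that amplifies the response, gave 11.8, 13.2, 10.8 and 7.2 CPM and 31.1, 49.1, 48.0 and 39.8 CPM, again without overlap (log2 fold change 1.96 ± 0.20, edgeR adjusted p = 1.45e-07). Its level in the freely fed mutant was 48.0 ± 11 CPM. Isg15, the ubiquitin-like tag, had no call, at 5.53 ± 1.52 CPM in the wild type and 10.6 ± 7.08 CPM in the restricted mutant (edgeR adjusted p = 0.124, or 0.0383 without restricted mutant library 1). Restricted mutant libraries 2, 3 and 4 lay above its wild-type range at 6.97, 20 and 11.9 CPM, while library 1 lay inside it at 3.68 CPM.

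Macrophage genes were higher too. Of 27 tested genes of macrophages and Kupffer cells, the resident macrophages of the liver, 19 rose and none fell, with a median of 0.97 (0.71 in the freely fed mutant with 11 called higher, -0.28 in the restricted wild type with 1). The 4 mutant libraries stood 0.794 to 1.235 above the wild-type mean and the wild-type libraries between -0.329 and 0.317. Marco, a scavenger receptor, gave 0.834, 0.931, 0.299 and 0.48 CPM in wild-type libraries and 11.9, 18.3, 7.59 and 14.1 CPM in the restricted mutant, a log2 fold change of 4.33 ± 0.58 (edgeR adjusted p = 8.41e-06). Cd68, a lysosomal protein of macrophages, gave 1.89, 2.99, 2.87 and 4.04 CPM and 7.0, 7.51, 7.47 and 8.3 CPM, without overlap (log2 fold change 1.36 ± 0.23, edgeR adjusted p = 0.000105). C1qc, a chain of the first complement component that Kupffer cells make, rose from 15.2 ± 3.23 to 34.4 ± 5.35 CPM. Clec4f, found on mouse Kupffer cells, rose from 52.0 ± 5.01 to 98.5 ± 16.1 CPM. In bulk tissue, more cells of a type and more RNA per cell cannot be told apart.

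Markers of other cells were measured the same way. Of 10 defining macrophage markers 9 rose, and their summed level was 238.5 to 339.6 CPM in the restricted mutant and 106.8 to 158.0 CPM in the wild type. Of 6 hepatocyte markers 1 rose and 2 fell, with summed levels of 90930 to 119100 and 102700 to 121700 CPM, so the labelled tissue holds its defining transcripts in both groups. None of 6 T and NK cell markers had enough counts to be tested. Of 4 neutrophil markers 3 were tested, of which 2 rose and 1 fell, and Ngp was at 0 in both groups, with summed levels of 4.845 to 7.763 CPM in the restricted mutant and 7.984 to 10.49 CPM in the wild type. The wider neutrophil list of 17 genes (7 tested, 3 rose, 1 fell) stood at 0.61 to 1.123 in the restricted mutant libraries and -0.154 to 0.206 in the wild type. B and plasma cell markers had 1 of 3 tested called lower, endothelial markers 1 of 5 called higher and cholangiocyte markers none of 4 called, with summed levels of 2.568 to 4.845, 79.38 to 106.8 and 6.479 to 10.99 CPM in the restricted mutant and 4.43 to 10.98, 64.96 to 109.5 and 4.011 to 7.745 CPM in the wild type. All 5 red cell markers fell, from a summed 1258 to 2287 CPM in the wild type to 343.5 to 697.1 CPM in the restricted mutant. Alas2, which starts heme synthesis in red cell precursors, stood at 33.1, 20.7, 182 and 157 CPM in wild-type libraries and 7.47, 8.31, 9.22 and 8.3 CPM in the restricted mutant. Hba-a1, an alpha globin gene with a near-identical copy, fell from 479 ± 123 to 152 ± 49.1 CPM, and was 155 ± 56.2 CPM in the freely fed mutant and 188 ± 56 CPM in the restricted wild type. Stellate cell and matrix genes had 7 of 17 called higher and none lower, among them Dcn (78.3 ± 12.5 to 142 ± 14.7 CPM), and that count fell to between 3 and 4 without restricted mutant library 2 or 3 or without wild-type library 1, 2 or 3. The part of cell composition in the gene groups of this comparison was not tested.

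**Figure D3:**
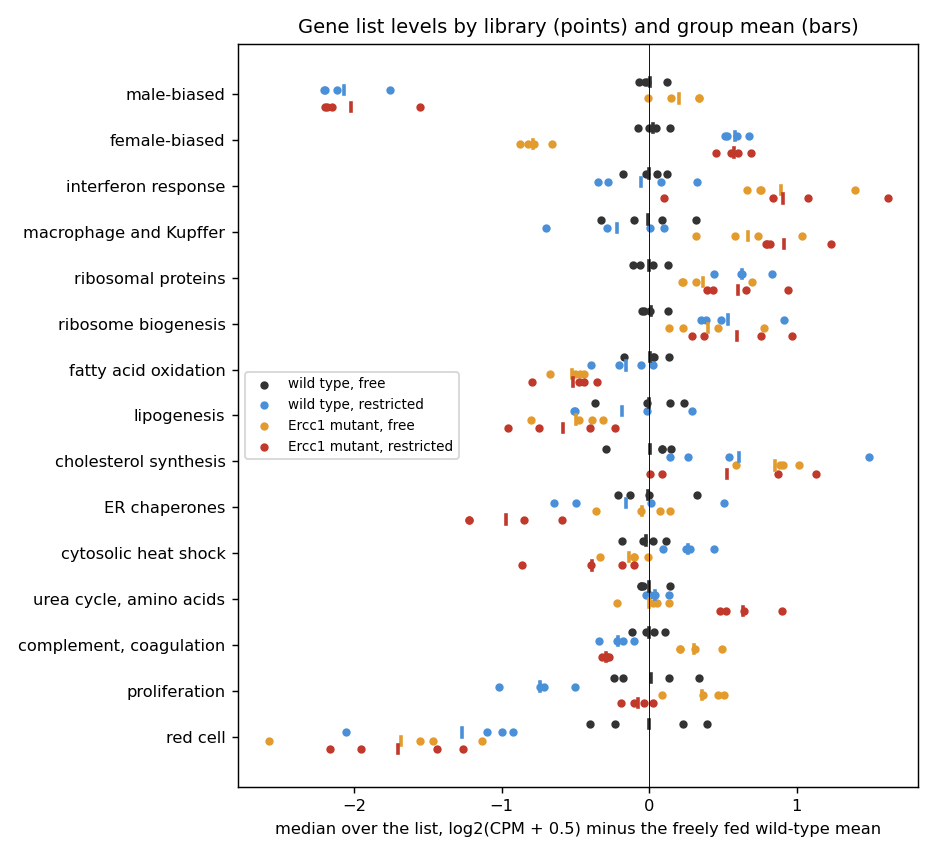
Level of 15 gene lists in the 4 groups at 16 weeks, as the median over the list of log2(CPM + 0.5) minus the freely fed wild-type mean (x axis), with 1 point per library and a bar at the group mean. The ER chaperone list lies between -1.221 and -0.592 in the restricted mutant libraries and the urea cycle list between 0.478 and 0.899, while interferon and macrophage lists are high in both mutant groups and the male-biased list is low in both restricted groups.

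Proteins of the secretory pathway fold in the endoplasmic reticulum (ER) with the help of chaperones, whose genes carry an ER stress response element (ERSE). Of 30 tested ER chaperone and unfolded protein response genes, 22 fell and none rose in the restricted mutant, with a median log2 fold change of -0.97. No member was called in the freely fed mutant (median 0.01), and in the restricted wild type 2 fell and none rose (median 0.01). Between restricted and freely fed mutants 19 fell (median -0.92). The interaction had a median of -0.82, with no member passing the threshold, so a different response of the 2 genotypes to restriction was not shown for any single gene of the list. Every restricted mutant library lay below every wild-type library in the list level (-1.221 to -0.592 against -0.214 to 0.326).

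To show the element, 3 promoters that hold it are printed here from the 250 bases before the gene start (RefSeq, GRCm38.p6), with letters matching CCAAT, any 9 bases and CCACG on either strand in capitals. That of Hspa5 lies at chr2:34771840-34772089 on the plus strand with its match 65 to 47 bases before the start, that of Hsp90b1 at chr10:86705445-86705694 on the minus strand with 2 matches, and that of Creld2 at chr15:88819396-88819645 on the plus strand with 1.
Hspa5: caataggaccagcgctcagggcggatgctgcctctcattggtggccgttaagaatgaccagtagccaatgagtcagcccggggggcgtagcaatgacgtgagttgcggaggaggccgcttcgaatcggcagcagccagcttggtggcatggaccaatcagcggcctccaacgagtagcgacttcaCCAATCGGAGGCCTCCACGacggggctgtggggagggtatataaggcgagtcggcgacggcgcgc
Hsp90b1: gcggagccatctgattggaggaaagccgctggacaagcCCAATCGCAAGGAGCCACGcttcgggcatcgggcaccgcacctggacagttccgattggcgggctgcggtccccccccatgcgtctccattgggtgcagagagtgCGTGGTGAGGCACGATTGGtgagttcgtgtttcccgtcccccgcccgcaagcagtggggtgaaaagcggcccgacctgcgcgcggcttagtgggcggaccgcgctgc
Creld2: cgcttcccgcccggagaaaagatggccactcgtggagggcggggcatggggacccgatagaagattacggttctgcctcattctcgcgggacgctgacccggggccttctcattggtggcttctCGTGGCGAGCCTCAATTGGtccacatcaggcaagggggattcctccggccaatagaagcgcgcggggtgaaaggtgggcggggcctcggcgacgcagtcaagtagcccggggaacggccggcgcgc
Of the list, 25 genes matched the promoter table and 10 of them held the motif, in 10 of 26 windows (38.5%) against 0.119% of all 32851 windows of 300 bases. Herpud1, Pdia4 and Derl2, which fell, were among the genes without it. No window of the ER list held the ISRE letters and none of the interferon list the ERSE letters. As above, a match is a description of letters.

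Herpud1 (chromosome 8, 94386438 to 94395377), which helps to remove misfolded proteins from the ER, gave 663, 663, 498 and 475 CPM in wild-type libraries and 123, 149, 73.9 and 76.6 CPM in the restricted mutant. The groups were well apart, with a log2 fold change of -2.44 ± 0.32 (edgeR adjusted p = 6.3e-06). Hspa5 (BiP), the main ER chaperone, gave 1320, 1840, 1380 and 1280 CPM and 415, 531, 983 and 661 CPM, also without overlap (log2 fold change -1.17 ± 0.31, edgeR adjusted p = 0.00806). It was 1290 ± 370 CPM in the freely fed mutant and 1960 ± 1000 CPM in the restricted wild type, where libraries spread widely. Creld2 fell from 93.5 ± 30.9 to 25.8 ± 13.8 CPM, Pdia4, a disulfide isomerase, from 357 ± 72 to 101 ± 40.1 CPM, and Hsp90b1 (GRP94) from 1300 ± 293 to 625 ± 153 CPM (edgeR adjusted p of 0.0119, 0.000221 and 0.00386). Derl2, part of the channel for degradation, fell from 69.6 ± 4.53 to 40.6 ± 7.6 CPM, and Ero1b, which oxidises the isomerases, from 58.4 ± 11.7 to 18.4 ± 4.43 CPM. Not every member moved: Xbp1, a factor of the response, stood at 106 ± 7.41 and 104 ± 26.2 CPM (interval of the log2 difference -0.39 to 0.35), and P4hb, another isomerase, at 927 ± 122 and 902 ± 78.7 CPM (-0.30 to 0.22). In the cytosol, 9 of 23 heat shock genes fell and 1 rose (median -0.50), but the 9 became 3 without restricted mutant library 1 or wild-type library 1 and 1 without restricted mutant library 2.

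Among secreted proteins, 13 of 27 complement and coagulation genes fell and 2 rose, with a median of -0.38 (0.32 in the freely fed mutant, with 10 called higher). C8a, a part of the membrane attack complex, gave 270, 484, 480 and 314 CPM in wild-type libraries and 54.3, 82.3, 57.1 and 46.6 CPM in the restricted mutant, a log2 fold change of -2.69 ± 0.29 (edgeR adjusted p = 4.64e-07). It was high in freely fed mutants (466 ± 111 CPM) and low in restricted wild types (89.8 ± 45.8 CPM). C9 fell from 633 ± 95.4 to 225 ± 45.7 CPM and Mbl1, a lectin that starts complement, from 177 ± 15 to 48.7 ± 7.11 CPM. Of 24 other hepatocyte secreted proteins 11 fell and 2 rose. Serpina1a, an alpha-1 antitrypsin with near copies, gave 19100, 18300, 19300 and 18200 CPM in wild-type libraries and 7110, 6370, 3810 and 3930 CPM in the restricted mutant (log2 fold change -1.82 ± 0.18, edgeR adjusted p = 1e-07). Alb, the albumin gene, gave 84000, 65400, 71200 and 68000 CPM and 83800, 90800, 77900 and 70000 CPM, and its groups overlapped (log2 fold change 0.16, 95% interval -0.19 to 0.51).

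Nitrogen metabolism moved the other way. The urea cycle disposes of the nitrogen of amino acids, which are broken down for fuel or glucose when food is short. Of 23 tested urea cycle and amino acid catabolism genes, 15 rose and 2 fell in the restricted mutant, with a median of 0.72. The 2 falls were Otc and Uox (log2 fold changes -0.51 and -0.74, edgeR adjusted p of 0.00249 and 0.0012). Asl, also of the urea cycle, did not pass the threshold (0.40, edgeR adjusted p = 0.126). The medians were 0.04 in the freely fed mutant (2 rose, 2 fell) and 0.04 in the restricted wild type (1 rose, 1 fell), and the interaction called 5 members higher and none lower. All 4 mutant libraries (0.478 to 0.899) lay above all wild-type libraries (-0.053 to 0.14) in the list level.

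Cth (chromosome 3, 157894248 to 157925077), which makes cysteine and hydrogen sulfide from cystathionine, gave 149, 146, 140 and 157 CPM in wild-type libraries and 845, 561, 551 and 463 CPM in the restricted mutant. Its log2 fold change was 2.03 ± 0.21 (edgeR adjusted p = 1.02e-07), while freely fed mutants held 189 ± 44 CPM and restricted wild types 138 ± 43.1 CPM. Cth is not a member of the urea cycle list. The response to restriction was larger in the mutant (interaction 1.78 ± 0.28, edgeR adjusted p = 0.000863). Aass, which starts lysine breakdown, gave 366, 412, 430 and 535 CPM and 1510, 1180, 1100 and 887 CPM, and had 403 ± 45.4 and 398 ± 43.9 CPM in the side groups (interaction 1.66 ± 0.21, edgeR adjusted p = 5.15e-05). Both genes were raised in all restricted mutant libraries and in neither side group did the level pass the threshold against the wild type. Got1, the cytosolic aspartate aminotransferase, gave 149, 149, 160 and 130 CPM and 1830, 1280, 724 and 782 CPM, a log2 fold change of 2.97 ± 0.35 (edgeR adjusted p = 2.3e-06). It stood at 218 ± 16.6 CPM in freely fed mutants and 274 ± 108 CPM in restricted wild types, and its interaction missed the threshold (edgeR adjusted p = 0.122). Slc25a15, the mitochondrial ornithine carrier, rose from 136 ± 7.91 to 419 ± 37.8 CPM, and Oat, which turns ornithine towards glutamate, from 440 ± 71 to 1050 ± 166 CPM. Cps1, which fixes ammonia at the entry of the cycle, rose from 3580 ± 367 to 7120 ± 466 CPM, and Ass1, which adds aspartate, from 2540 ± 339 to 5010 ± 811 CPM (edgeR adjusted p of 1.01e-05 and 6.31e-05).

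Signals tied to fasting did not move together. Of 22 genes of gluconeogenesis and fasting, 6 rose and 6 fell. Sik1, a kinase switched on by cyclic AMP, gave 12.8, 11.1, 16.0 and 7.4 CPM in wild-type libraries and 142, 133, 118 and 85.9 CPM in the restricted mutant (log2 fold change 3.33 ± 0.40, edgeR adjusted p = 2.42e-06). Fgf21, a hormone of fasting and of protein shortage, gave 4.56, 7.12, 5.69 and 4.87 CPM and 1.23, 0.536, 0.934 and 1.62 CPM, lower in every mutant library (log2 fold change -2.37 ± 0.46, edgeR adjusted p = 0.0005). It was low in the freely fed mutant too (1.44 ± 0.657 CPM). Trib3, a target of the amino acid stress factor ATF4, rose from 1.03 ± 0.323 to 4.3 ± 0.949 CPM. Asns, Slc7a5, Cth, Ddit4 and Atf3 of the ATF4 list also rose, Chac1 and Shmt2 fell, and Atf4 itself did not pass the threshold. The level of that list was 0.222 to 0.646 in the restricted mutant and -0.143 to 0.17 in the wild type. Aldoa, the aldolase typical of muscle, rose from 68.6 ± 6.01 to 207 ± 46 CPM, and Ctsl, a lysosomal protease, gave 214, 209, 204 and 263 CPM and 1770, 1090, 785 and 743 CPM (log2 fold change 2.30 ± 0.23, edgeR adjusted p = 1e-07). Aldoa belongs to the glycolysis list and Ctsl to the lysosome list, and both lists had members called in each direction. Glycolysis list levels overlapped, at 0.008 to 0.284 in the restricted mutant and -0.163 to 0.171 in the wild type. Lysosome list levels also overlapped, at -0.131 to 0.046 and -0.032 to 0.008.

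Fatty acids are burned in mitochondria and peroxisomes under control of the factor PPARA, and are made from sugar by a separate set of enzymes. Of 48 tested fatty acid oxidation and PPARA genes, 28 fell and 3 rose in the restricted mutant (median -0.53), beside -0.52 in the freely fed mutant (24 fell, none rose) and -0.23 in the restricted wild type (3 rose, 10 fell). The 3 rises (Cyp4a31, Cyp4a32 and Pdk4) were lost or cut to 1 when any of 6 libraries was left out (restricted mutant 1, 3 or 4, or wild-type 1, 2 or 3). Fabp1 (chromosome 6, 71199827 to 71205023), which carries fatty acids in the hepatocyte, gave 6440, 4980, 5250 and 4210 CPM in wild-type libraries and 693, 576, 614 and 671 CPM in the restricted mutant. The groups were far apart (log2 fold change -3.03 ± 0.18, edgeR adjusted p = 2.34e-11), and each side group lay between, at 2020 ± 375 CPM in freely fed mutants and 2470 ± 719 CPM in restricted wild types. Acsl1, which activates fatty acids, gave 1730, 1430, 1920 and 1920 CPM and 452, 414, 370 and 360 CPM, a log2 difference of -2.13 ± 0.21 (edgeR adjusted p = 5.3e-08). The side groups held 670 ± 32.9 and 872 ± 320 CPM of Acsl1. The classical PPARA targets Cyp4a10 and Cyp4a14 did not pass, at 800 ± 269 and 1360 ± 364 CPM for Cyp4a10 (95% interval of the log2 difference 0.11 to 1.43) and 539 ± 222 and 970 ± 248 CPM for Cyp4a14 (-0.14 to 1.83). Their relatives Cyp4a31 and Cyp4a32 passed narrowly with overlapping groups (log2 fold changes 0.79 and 0.75, edgeR adjusted p of 0.0408 and 0.0415). Sharing of reads among these genes was not tested. Cyp4a10 passed the threshold without wild-type library 4 (log2 fold change 0.99, edgeR adjusted p = 0.0368), with the 8 libraries alone (adjusted p = 0.0402) and in DESeq2 (adjusted p = 0.0463). Cyp4a14 was 82.0 ± 21.9 CPM in the freely fed mutant and 1660 ± 476 CPM in the restricted wild type.

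Of 27 tested lipogenesis genes, 11 fell and 1 rose (median -0.55). The list level was -0.96 to -0.24 in the restricted mutant, which overlapped the wild type at -0.36 to 0.24. It was -0.8 to -0.31 in the freely fed mutant and -0.51 to 0.29 in the restricted wild type. Dgat2, which completes triglycerides, gave 555, 486, 500 and 471 CPM in wild-type libraries and 304, 256, 209 and 239 CPM in the restricted mutant (log2 fold change -1 ± 0.11, edgeR adjusted p = 5.21e-07). Me1, malic enzyme, fell from 264 ± 87.1 to 69.1 ± 15.7 CPM (edgeR adjusted p = 1.49e-05). Scd1, the desaturase that makes oleate, gave 2460, 3650, 2220 and 2280 CPM and 616, 610, 609 and 1120 CPM, lower in every mutant library (log2 fold change -1.84 ± 0.40, edgeR adjusted p = 0.00157), and Scd2, which shares sequence, followed it. Scd1 was lower still in freely fed mutants (227 ± 88.1 CPM), so restriction was accompanied by a higher level in the mutant and a lower one in the wild type (949 ± 286 CPM; interaction 3.18 ± 0.56, edgeR adjusted p = 0.00389). Fasn, the fatty acid synthase, gave 618, 455, 465 and 237 CPM in wild-type libraries and 307, 268, 1020 and 1450 CPM in the restricted mutant, too spread for a call (interval -0.43 to 1.99). Of 26 cholesterol synthesis genes, 6 rose and none fell (median 0.57), and 2 to 3 rose without restricted mutant library 3 or 4 or without wild-type library 4. Sqle, which oxidises squalene, led them with 3.22, 3.46, 3.59 and 3.98 CPM against 19.4, 35.3, 70.0 and 47.2 CPM, a log2 difference of 3.59 ± 0.53 (edgeR adjusted p = 4.1e-05). It was also high in both side groups (61.5 ± 8.68 CPM in freely fed mutants, 32.4 ± 12.4 CPM in restricted wild types). The cholesterol list level was 0.09, 0.007, 1.134 and 0.875 in restricted mutant libraries 1 to 4. Libraries 1 and 2 thus lay inside the wild-type range of -0.293 to 0.148. That list level ran from 0.59 to 1.01 in freely fed mutants and from 0.14 to 1.49 in restricted wild types.

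Dio1 (chromosome 4, 107291465 to 107307169), the liver deiodinase that activates thyroid hormone and is itself raised by it, gave 86.1, 83.4, 96.6 and 102 CPM in wild-type libraries and 4.03, 2.04, 0.759 and 0.972 CPM in the restricted mutant. Its log2 fold change was -5.55 ± 0.51 (edgeR adjusted p = 1.06e-07), or -6.17 without restricted mutant library 1. Freely fed mutants held 43.0 ± 7.76 CPM and restricted wild types 26.6 ± 18.6 CPM, and the fall on restriction was larger in the mutant (interaction -2.65 ± 0.62, edgeR adjusted p = 0.0353).

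Most cytosolic ribosomal protein genes rose. Of 80 tested cytosolic ribosomal protein genes, 70 rose and none fell, with a median log2 fold change of 0.63, beside 0.38 in the freely fed mutant (20 rose) and 0.62 in the restricted wild type (69 rose). Rpl3, a core protein of the large subunit, gave 225, 200, 195 and 172 CPM in wild-type libraries and 432, 344, 324 and 355 CPM in the restricted mutant (log2 fold change 0.88 ± 0.12, edgeR adjusted p = 1.06e-05). Rpl22l1, a paralog of Rpl22, rose from 13.9 ± 1.85 to 35.9 ± 7.61 CPM. Reads of ribosomal protein genes can also come from processed pseudogenes, so single values are less certain than the group. Of 47 ribosome biogenesis genes, 30 rose and none fell (median 0.66), and 15 rose without restricted mutant library 2. Ncl (nucleolin) gave 180, 149, 163 and 158 CPM against 352, 352, 225 and 224 CPM, and Mybbp1a, a nucleolar protein, 60.2, 51.0, 56.2 and 50.1 CPM against 129, 155, 96.5 and 93.8 CPM. Both were higher in every mutant library than in any wild-type one, with more in libraries 1 and 2 than in 3 and 4. Of 40 translation factor genes 6 rose and 1 fell, the rises near the 13.6% of all genes tested that were called higher. Their list levels were 0.089 to 0.433 in the restricted mutant and -0.094 to 0.07 in the wild type. The 6 rises became 3 without restricted mutant library 1 or wild-type library 3, 10 without restricted mutant library 4, and 17 with upper quartile normalization. Of 78 mitochondrial ribosomal protein genes 9 rose and 2 fell, neither above the 13.6% of all genes tested called in each direction. Their list levels overlapped, at -0.035 to 0.166 and -0.114 to 0.149. The 9 rises became 16 with upper quartile normalization and 14 with only the 8 libraries compared, and the 2 falls became 1 with upper quartile normalization or without restricted mutant library 2 or 4 or wild-type library 1 or 3. Nuclear genes of oxidative phosphorylation showed a small shift, with 20 of 76 called higher and none lower (median 0.23), such as Atp5b, a subunit of ATP synthase (1250 ± 89.6 to 1750 ± 94.1 CPM). That count ran from 9 to 11 without restricted mutant library 1 or wild-type library 2 or 3, and was 32 with upper quartile scaling.

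DNA damage switches on targets of p53, which halt the cell cycle. Of 29 tested p53 targets, 9 rose and 2 fell in the restricted mutant (median 0.39), beside 15 that rose and 1 that fell in the freely fed mutant (median 0.84), and 5 rose without wild-type library 3. Gdf15, a stress hormone, gave 6.0, 7.78, 5.33 and 5.76 CPM in wild-type libraries and 15.5, 36.2, 12.4 and 11.4 CPM in the restricted mutant (log2 fold change 1.60 ± 0.41, edgeR adjusted p = 0.00546), beside 23.5 ± 14.3 CPM in freely fed mutants. Cdkn1a (p21), the cell cycle inhibitor, gave 8.06, 20.5, 8.98 and 15.6 CPM and 27.2, 47.9, 15.1 and 11.6 CPM, overlapping and without a call (edgeR adjusted p = 0.214, 95% interval -0.20 to 2.08). Perp, which forms desmosomes, fell from 40.4 ± 2.97 to 18.7 ± 3.54 CPM (edgeR adjusted p = 5.21e-07). Of 37 tested proliferation genes 3 rose and 5 fell, the latter 1 without wild-type library 1. E2f8, which drives hepatocytes to polyploidy, gave 13.8, 15.8, 14.2 and 18.8 CPM and 1.87, 2.68, 1.23 and 0.713 CPM (log2 fold change -3.25 ± 0.64, edgeR adjusted p = 0.000766). Ccnd1 (cyclin D1) rose from 10.0 ± 5.38 to 63.6 ± 48.8 CPM (edgeR adjusted p = 0.00225), although restricted mutant library 1 at 11.2 CPM lay inside the wild-type range. Of 29 nucleotide excision repair genes, Ercc1 included, 2 rose and 2 fell.

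Several genes that were high or low in the freely fed mutant were so in the restricted mutant too, though not always at the same level. Igsf23, an immunoglobulin-like membrane protein, gave 0, 0.0665, 0 and 0.206 CPM in wild-type libraries and 7.24, 4.29, 5.66 and 5.51 CPM in the restricted mutant, with 5.67 ± 0.701 CPM in the freely fed one. Its log2 fold change of 6.33 was 7.66 without wild-type library 4. Gpx6, a selenium-type glutathione peroxidase, gave 0.222, 0.2, 0.0599 and 0.0685 CPM and 14.5, 15, 22.2 and 12.6 CPM (log2 fold change 6.77 ± 0.49, edgeR adjusted p = 6.66e-10). Gpx6 was lower in freely fed mutants (4.04 ± 1.01 CPM; log2 difference 1.99 ± 0.33, edgeR adjusted p = 0.000185). Cib3 stood at 0.241 ± 0.264, 6.47 ± 4.09 and 12.0 ± 3.08 CPM in wild type, restricted and freely fed mutant, and its log2 fold change of 4.74 was 5.66 without wild-type library 4. Wfdc2, a secreted protease inhibitor, was low in both mutant groups, at 0.219 ± 0.167 CPM restricted and 0.355 ± 0.144 CPM freely fed beside 4.7 ± 0.835 CPM in the wild type. The log2 fold change of Wfdc2 was -4.37, or -5.03 without restricted mutant library 3. Sema5b, a guidance molecule, was low in all 3 other groups (1.24 ± 1.01 CPM in the restricted mutant, 0.721 ± 0.318 CPM in the freely fed mutant and 0.67 ± 0.591 CPM in the restricted wild type) beside 12.1 ± 5.02 CPM in the wild type.

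Hepatocytes near the portal vein and near the central vein express different enzymes. Of 19 periportal genes 9 rose and 4 fell, and of 23 pericentral genes 8 rose and 4 fell. Both list levels were higher in every restricted mutant library than in any wild-type library, at 0.182 to 0.523 against -0.153 to 0.14 for periportal genes and 0.254 to 0.496 against -0.076 to 0.119 for pericentral genes. In freely fed mutants the periportal level was -0.24 to 0.0, but the pericentral level was 0.25 to 0.55, as in the restricted mutant. Restricted wild types stood at -0.08 to 0.13 and -0.15 to 0.23. Of the periportal rises, Cps1, Ass1, Arg1, Gls2, Hal and Sds are also counted in the urea cycle list above. Periportal Cyp2f2 and Pck1 fell (log2 fold changes -1.39 and -2.21). Pericentral Glul (-0.25) and Cyp2e1 (0.30) did not pass the threshold. Axin2, a target of the Wnt signal around the central vein, gave 3.39, 4.46, 2.81 and 3.7 CPM in wild-type libraries and 17.4, 15.3, 15 and 18.2 CPM in the restricted mutant (log2 fold change 2.20 ± 0.24, edgeR adjusted p = 3.12e-07). Cyp2a5, a pericentral P450 that shares reads with Cyp2a4, rose from 339 ± 86.4 to 1190 ± 180 CPM. Cyp2c29, another pericentral P450, gave 1040, 1320, 907 and 997 CPM and 300, 278, 200 and 246 CPM, and was lower still in freely fed mutants at 108 ± 13.9 CPM (interaction 2.26 ± 0.24, edgeR adjusted p = 1.33e-05).

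Among the 12 largest rises were 3 further genes whose levels differed between restricted mutant libraries. Lrtm2 and Dnah1, the latter a heavy chain of ciliary dynein, stood at 11.1 and 12.3 CPM and at 15.9 and 13.5 CPM in libraries 3 and 4, but at 2.92 and 1.45 CPM and at 1.05 and 1.34 CPM in libraries 1 and 2. Over the whole groups, the ratio to the wild type was 430 for Lrtm2 (95% counting interval 76.8 to 17000) and 247 for Dnah1 (68.1 to 2050). The log2 fold changes were 8.22 and 7.68, and became 9.79 for Lrtm2 without wild-type library 1 and 7.09 for Dnah1 without restricted mutant library 3. Ppp1r3g, a glycogen-targeting subunit of protein phosphatase, gave 70.4 CPM in restricted mutant library 1 and 6.17, 1.81 and 2.2 CPM in the others, beside 0.5 CPM or less in the wild type. Its log2 fold change of 6.72 was 4.16 without restricted mutant library 1 and 8.13 without wild-type library 1.

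**Figure D4:**
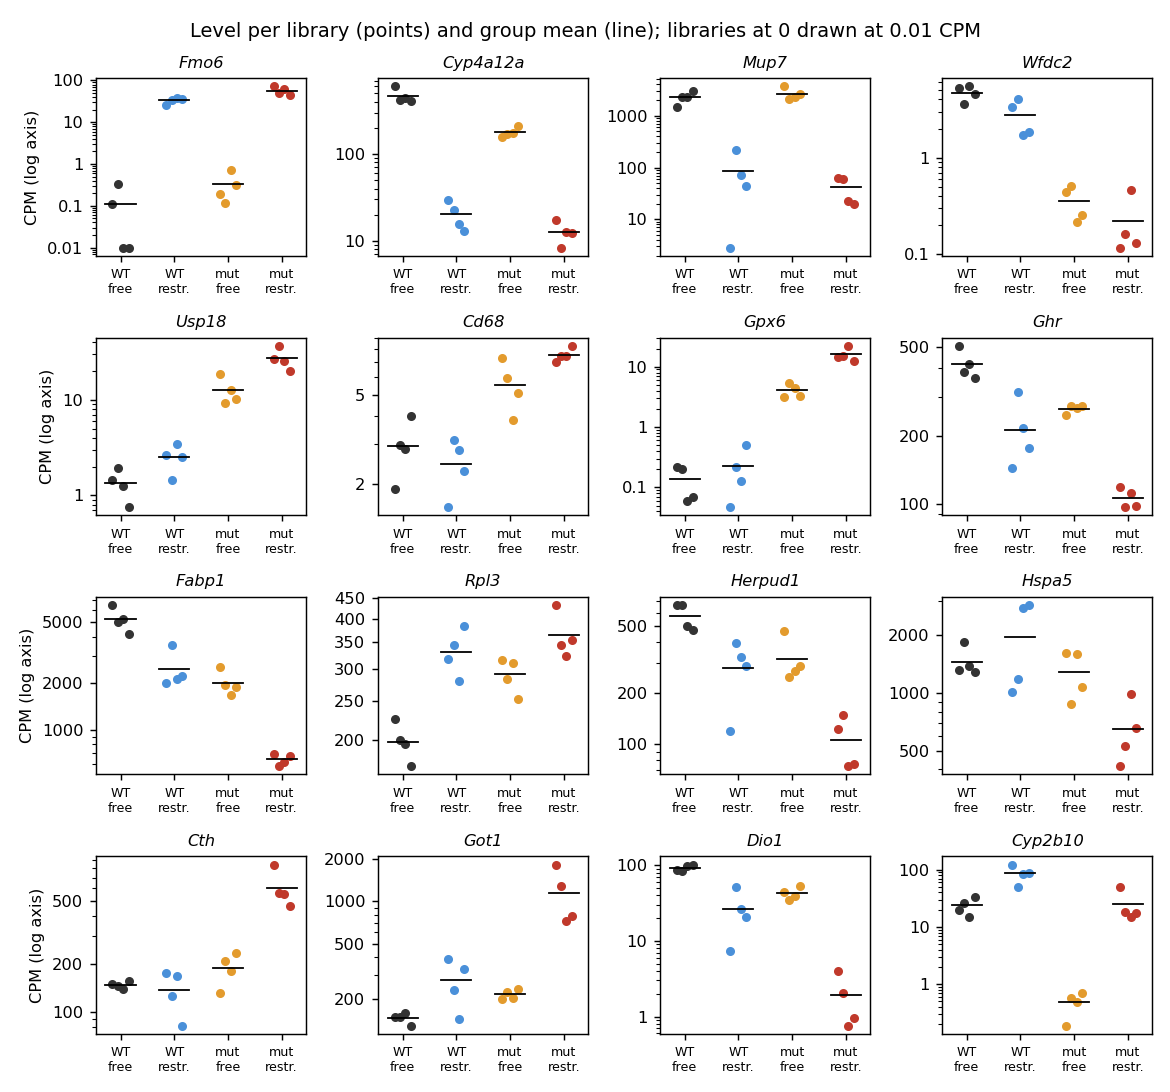
Level of 16 genes in CPM on log axes (y axis, a separate scale for each gene) in the 4 groups at 16 weeks (x axis), with 1 point per library and a line at the group mean, libraries at 0 drawn at 0.01 CPM. Fmo6 is high and Cyp4a12a low in both restricted groups, Wfdc2 is low and Usp18 high in both mutant groups, Fabp1 and Ghr are lowest in the restricted mutant, Cth and Got1 are highest in the restricted mutant, and Cyp2b10 is low in the freely fed mutant alone.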

How the data were processed

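Liver RNA of 24 mouse libraries in 6 groups was sequenced, and the deposited table holds whole-number read counts per gene and library (22429 genes), not normalized. The submitters' processing notes name GRCm38.p6 as the build and list STAR 2.7.0f, Trimmomatic 0.39, featureCounts and Subread 1.6.4. For the strand setting and for reads that match several genes, the choice made is not given in the sources used here. Groups were taken from the sample titles. After filterByExpr, 12690 genes were fitted with edgeR 4.0.16 (R 4.3.3; TMM, quasi-likelihood test, robust) over all 24 libraries with 6 group means, and p-values were adjusted by Benjamini-Hochberg with a threshold of 0.05. SE is the log2 fold change divided by the square root of F. Coordinates come from GENCODE on GRCm38 and promoters from RefSeq. Counts of 12282 genes were simulated for the main comparison, with 100 genes changed by 1 and 100 by 2 on the log2 scale. Of these, 83% and 98% were recovered, with a false share of 6.2%. Far more genes were called in the data (3453), so these rates may not hold there. No 2 libraries of a group were alike within counting error (chi-square at least 8.772 times its degrees of freedom).

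Genes were named by rule: the 12 largest called rises and falls without overlap and with at least 2 CPM, the 3 called members of each list with the lowest adjusted p and 1 in the other direction, a short fixed list, and the 8 largest changes each way in freely fed mutants. Not all of them are described, and some items are not reported here. Hspa5, Creld2, Pdia4, Xbp1, P4hb, Cux2, Stat5b, Bcl6, Clec4f, Isg15, Cyp4a10, Cyp4a14, Rsad2 and Oas1a, and the interaction of diet and genotype, were added after their values were seen. The comparison and its gene lists were chosen with earlier results of these data known. Alternatives were RLE and upper quartile scaling, DESeq2 1.42.0, no filter, the 8 libraries alone, a replicate block, no mitochondrial transcripts and leaving out each library.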

Additional observations from a re-analysis of the deposited data

Results flagged for a closer look

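In 12 of 216 pairs of a gene and a group, 1 library stood apart from the other 3 by Dixon's ratio on log2(CPM + 0.5), and chance alone gives about 5%. Restricted mutant library 2 was high for C1qc (42.3 CPM, others 30.8 to 32.5), Clec4f (123 CPM, others 89.2 to 91.5) and Xbp1 (144 CPM, others 90.6 to 91.8). Restricted mutant library 4 was high for Scd1 (1120 CPM, others 609 to 616) and Scd2 (294 CPM, others 156 to 170), which share sequence. Restricted mutant library 1 was high for Cyp2b10 (48.9 CPM, others 15.2 to 18.3), and library 3 was high for Wfdc2 (0.467 CPM, others 0.117 to 0.161). Among wild-type libraries, number 1 was high for Vldlr (7.11 CPM, others 4.26 to 4.45) and number 4 low for Igfbp2 (78.3 CPM, others 106 to 110). The remaining 3 rest on single counts: Lrtm2 in wild-type library 1 (0.0556 CPM), Sult3a2 in wild-type library 4 (0.0685 CPM) and Sult2a6 in wild-type library 4 (0.0 CPM).

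The effect of restriction differed between mutant and wild type in 190 of 12690 genes tested (1.5%; edgeR interaction, adjusted p under 0.05). Of the 108 genes described, 15 were among them. Many of the 108 were chosen for large changes in these same libraries, so these shares cannot be compared. The difference is given here as the log2 effect in the mutant minus that in the wild type. It was positive for Sema5b (4.96), Cux2 (4.11), Cyp2b10 (3.8), Scd1 (3.18), Scd2 (3.13), Cyp2b9 (2.96), Cyp2b13 (2.95), Cyp2b23 (2.48), Cyp2c29 (2.26), Cth (1.78), Aass (1.66) and Oat (1.07). It was negative for Sqle (-3.7), Dio1 (-2.65) and Igfbp2 (-1.57).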

How the results depend on the processing

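The number of genes called between restricted mutant and freely fed wild type ran from 2713 to 3774 over 15 alternatives (3453 as reported), within 1.5 times in each. Of 184 named genes called, 158 kept their call in all 15. Deviations of same-numbered libraries of the 2 groups correlated at 0.14, 0.086, 0.049 and -0.071. Those of unlike-numbered libraries correlated at -0.198 to 0.194, so pairing by the replicate numbers of the titles was neither shown nor excluded. The fit with the replicate block called 3490 genes. In that fit Ercc1 had an edgeR adjusted p of 0.0542 and Cyp4a10 one of 0.0435. DESeq2 called 369 genes for the interaction (234 higher, 135 lower). With upper quartile scaling the list medians were -0.19 for the clock, -0.31 for complement, -0.01 for excision repair and 0.03 for lysosome, and with the 8 libraries alone they were 0.66 for B and plasma cells and -0.29 for complement. The cause of these moves was not tested.

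Leaving out 1 library at a time, genes called between restricted and freely fed wild types ran from 1145 to 1840 (445 to 852 higher), and for the interaction from 109 to 166 (71 to 113 higher, 38 to 64 lower). List medians ran from -0.11 to 0.07 for antigen presentation, 0.22 to 0.64 for ATF4 targets, 0.8 to 1.25 for B and plasma cells, -0.03 to 0.22 for CAR and PXR enzymes and 0.39 to 1.04 for cholangiocytes. They ran from -0.28 to -0.15 for the clock, -0.4 to -0.27 for complement, -0.6 to -0.11 for heat shock, 0.58 to 0.81 for female-biased genes, -0.24 to 0.11 for gluconeogenesis and -0.17 to -0.04 for excision repair. The others ran from 0.77 to 1.11 for neutrophils, 0.27 to 0.61 for p53 targets, 0.23 to 0.47 for periportal genes, -0.28 to 0.0 for proliferation, 0.41 to 0.81 for stellate cells and -0.91 to -0.24 for T and NK cells. Most members of the B and plasma list and of the T and NK list were under the count filter. In the former only Ighg2b was called higher (0.589 CPM in the restricted mutant) and Ighm was called lower (log2 fold change -1.94). No T and NK gene was called. Genes with few counts in a group have fold changes that move with a single library.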
